A study of Mus musculus with 10 samples.

Results

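The genes described here encode the SR and hnRNP splicing factors and the neuronal regulators that work beside them. They were chosen by symbol: the Srsf and Hnrnp genes, Tra2a and Tra2b, Rbfox1 to Rbfox3, Nova1 and Nova2, Celf1 to Celf6 and Ptbp1 to Ptbp3. All 45 symbols found on the array in this way passed the filter on mean signal, out of 13219 genes tested, and each was represented by its brightest probe set that names 1 gene. The lowest mean of a member, 8.72 on the log2 scale for Celf6, lay well above the limit of 6.47, so the limit left no member out and no member lay close to it. Hippocampal RNA from 3-week-old mice was hybridised to 10 Affymetrix Mouse430_2 arrays, 2 in each of 5 groups, and each array held a pool of 3 to 4 mice (14 wild-type and 20 A-CREB mice in all). Wild-type mice of the strain C57BL6 F1/J had received saline or kainate at 14 mg/kg. A-CREB mice, TetO-A-CREB-95 C57BL6 F1/J in the labels, had received saline, kainate at 14 mg/kg or kainate at 18 mg/kg, so the A-CREB saline group carries the transgene too. No wild-type group at 18 mg/kg was analysed here. The strain was not given in the labels of 2 wild-type arrays (replicate 1 after kainate and replicate 2 after saline), which were placed by their titles. Kainate is a glutamate receptor agonist that drives seizures and strong firing in the hippocampus, and A-CREB is a dominant-negative protein that pairs with CREB family factors and keeps them off DNA. The sources used here do not give the promoter that drives the tetO transgene or the interval between injection and dissection.

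SR proteins carry serine- and arginine-rich tails and bind exonic enhancers, where they usually favour inclusion of the exon. hnRNP proteins coat nascent transcripts and often favour skipping, and the choice of an exon depends on the balance between both groups. Rbfox, Nova and Celf proteins and Ptbp2 shape splicing programmes of neurons, whereas Ptbp1 holds many neuronal exons out of mRNA in other cells and in progenitors. Many of these genes make several mRNA forms, including forms with a poison exon that are degraded, so probe sets of 1 gene can read different transcripts. An array signal for a gene is the level of its RNA, not of the protein or of its activity in splicing.

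The median signal was 94.9 to 106 on the arrays numbered 1 and 135 to 152 on those numbered 2, in every group alike. The treatment was visible in Npas4 and Fos, both immediate-early genes, which rose after kainate by 5.53 and 3.26 on the log2 scale in the wild type, by 6.32 and 3.52 in A-CREB mice at 14 mg/kg and by 5.97 and 3.30 at 18 mg/kg (limma, adjusted p from 7.81e-06 to 0.000316). Creb1 differed by 0.10 (SE 0.21, limma, adjusted p = 1) between the saline groups, and since no probe set was known to read the transgene, the genotype was not checked on the arrays. All 5 pyramidal neuron and all 4 dentate granule cell markers were measured, and none of the markers measured in any of the 11 lists was at 0 on any array. The summed signal of 5 striatal markers was 5945 on the wild-type kainate array numbered 2 and 1158 to 2800 on the other 9. Fewer cells of a type and less RNA per cell cannot be told apart in such pools. Beyond saying that mice were pooled, the labels do not say how the replicates of a group differ, so the p-values measure the spread between these pools.

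The promoters of 3 members are shown because they carry the sequence that CREB binds and because the factors they belong to lead the comparisons below or hold the full site. The windows run from 250 bases before to 50 bases after the RefSeq start in the build GRCm38.p6, in the direction of transcription, and the capitals mark the short CRE site, TGACG or its reverse complement CGTCA. The window of Srsf5 is chr12:80945249-80945548 on the plus strand, that of Ptbp1 is chr10:79854182-79854481 on the plus strand, and that of Tra2a is chr6:49264003-49264302 on the minus strand.
Srsf5: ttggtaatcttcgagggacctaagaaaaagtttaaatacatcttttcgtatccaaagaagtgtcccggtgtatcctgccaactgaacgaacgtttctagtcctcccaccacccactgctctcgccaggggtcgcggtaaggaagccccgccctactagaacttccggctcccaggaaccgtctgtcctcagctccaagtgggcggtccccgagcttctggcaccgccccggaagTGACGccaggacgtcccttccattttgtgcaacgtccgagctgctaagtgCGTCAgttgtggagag
Ptbp1: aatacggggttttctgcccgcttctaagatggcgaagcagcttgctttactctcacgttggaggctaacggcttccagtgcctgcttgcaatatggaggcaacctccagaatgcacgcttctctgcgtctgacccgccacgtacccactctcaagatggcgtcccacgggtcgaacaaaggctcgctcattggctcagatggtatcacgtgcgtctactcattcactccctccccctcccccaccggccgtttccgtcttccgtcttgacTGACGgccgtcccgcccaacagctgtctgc
Tra2a: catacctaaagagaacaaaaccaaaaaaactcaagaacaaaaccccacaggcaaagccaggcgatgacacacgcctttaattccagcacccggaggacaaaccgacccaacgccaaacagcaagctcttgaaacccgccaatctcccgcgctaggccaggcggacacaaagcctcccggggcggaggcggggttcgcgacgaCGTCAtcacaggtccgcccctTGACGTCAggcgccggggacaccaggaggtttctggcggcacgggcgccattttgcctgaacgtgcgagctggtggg
Srsf5 held 2 short sites, Ptbp1 held 1, and Tra2a held 1 full CRE, TGACGTCA, which accounts for 2 of its 3 short-site matches. A promoter sequence was given for 40 members. The full CRE, searched on both strands, lay in a promoter of 3 of the 40 (Tra2a, Celf3 and Celf6), 7.5%, against 3.41% of the 10630 tested genes with a promoter. The short site lay in 23 of 40, 57.5%, against 34.2%. The AP-1 site TGANTCA lay in 3 members (7.5% against 6.22%) and the Egr site GCGGGGGCG in 4 (10% against 6.47%). A gene can have several windows, some of which overlap, and the members held 68 in 40 genes against 13689 in 10630 genes. Counted per window, the short site lay in 45.6% against 29.5% and the full CRE in 7.35% against 2.83%. The AP-1 site lay in 4.41% against 5.19% of windows and the Egr site in 7.35% against 5.38%. These are matches of letters within the window and not measured binding.

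Few of these genes differed after kainate beyond the spread between arrays. In the fit of all 10 arrays no member passed an adjusted p of 0.05 (limma, two-sided, Benjamini-Hochberg over all genes) in the wild type, where 0.182% of all genes did, in A-CREB mice at 14 mg/kg (0.31% of all genes), at 18 mg/kg (0.235%) or in the mean of both genotypes at 14 mg/kg (0.696%). At an unadjusted p of 0.05 the members past it numbered 1, 1, 1 and 4, or 2.22%, 2.22%, 2.22% and 8.89%, against 3.53%, 4.99%, 2.79% and 7.33% of all genes. With the replicate number as a block, Srsf5 and Ptbp1 rose in the mean response, 2 of 45 or 4.44% against 1.91% of all genes that rose and 2.87% that changed either way, and no member passed in the other 3 comparisons (0.711%, 1.26% and 0.696% of all genes). Of the 45, 29 had a positive mean response, 64.4% against 42.7% of all genes, with a median of 0.039 against -0.038. That median ran from -0.0025 without A-CREB kainate 14 replicate 2 to 0.070 without A-CREB kainate 14 replicate 1. It was 0.020 without wild-type saline replicate 1 and 0.025 without A-CREB saline replicate 1. Its sign thus turned with A-CREB kainate 14 replicate 2 left out, and its size moved with other arrays. The median size of the change was 0.14 in members and 0.14 in all genes. The 6 choroid plexus markers had a median mean response of 0.27, with summed signals of 26317 to 32824 on the saline and 24608 to 44599 on the kainate arrays, and their part in these values was not tested. With the block, the call of Ptbp1 was lost when either wild-type saline array, wild-type kainate replicate 1 or A-CREB kainate 14 replicate 1 was left out (adjusted p from 0.0524 to 0.136), and that of Srsf5 when wild-type saline replicate 2, wild-type kainate replicate 1, A-CREB saline replicate 1 or either A-CREB kainate 14 array was left out (adjusted p from 0.0528 to 0.14). With wild-type saline replicate 1 left out, Srsf5 and Srsf6 were the 2 members past the threshold.

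**Figure D1:**
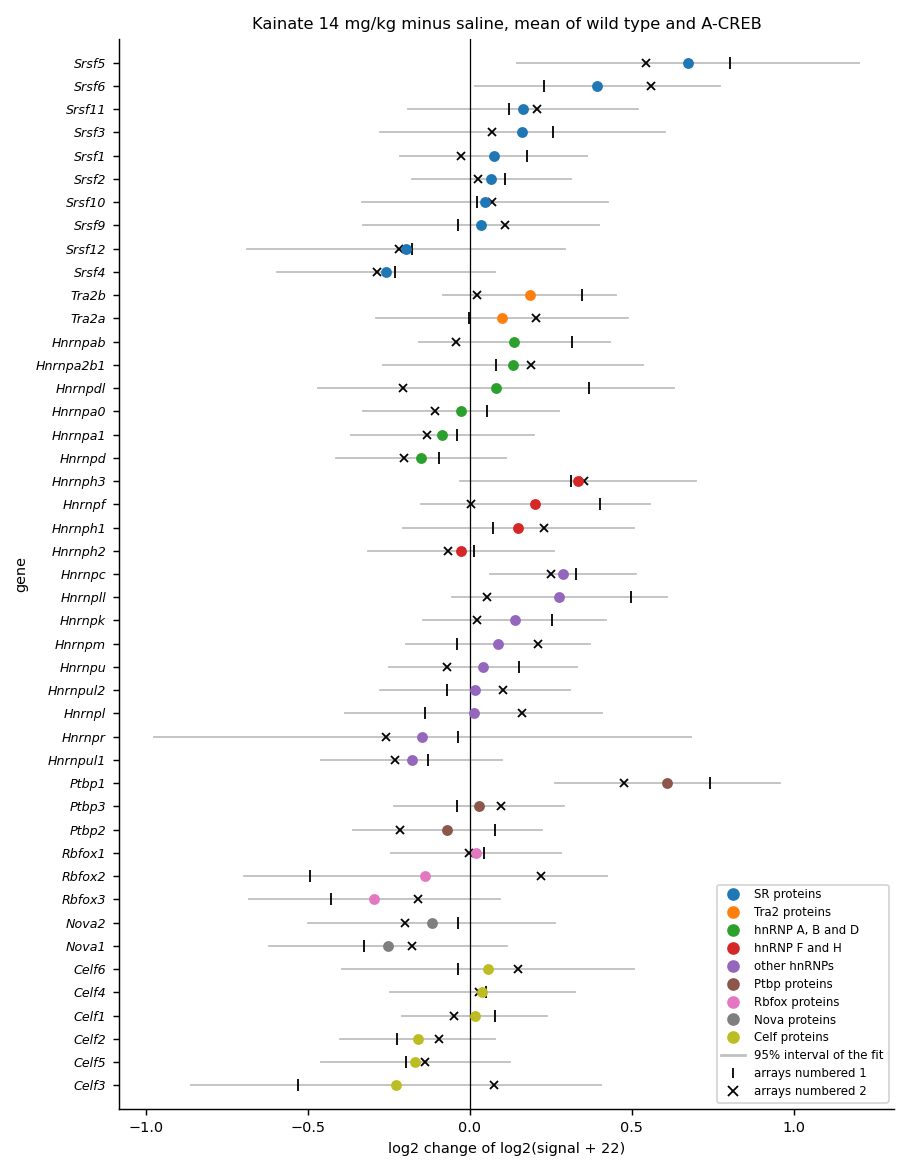
The mean kainate response at 14 mg/kg (log2 change of signal + 22, horizontal axis) of the 45 genes, with the 95% interval of the fit without the replicate block as lines and the value within each replicate number as ticks and crosses. Srsf5 and Ptbp1 stand furthest to the right, and most other genes lie within 0.3 of zero.

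Among the 10 SR protein genes, Srsf5, known from growth-stimulated liver cells as an early-response splicing factor, had the largest change. Its signal was 4600.3 and 2740.1 on the wild-type saline arrays numbered 1 and 2 and 6983 and 4182 after kainate, then 3831 and 4521 on the A-CREB saline arrays, 7725 and 6316 after 14 mg/kg and 7794 and 4552 after 18 mg/kg. The kainate arrays of each number lay above the saline array of the same number and genotype, but the wild-type groups overlapped, whereas the A-CREB groups at both doses did not. The mean response was 0.67 (SE 0.24, 1.59-fold, limma, adjusted p = 0.483), with 0.80 on the arrays numbered 1 and 0.54 on those numbered 2. With the replicate block Srsf5 rose (SE 0.14, limma, adjusted p = 0.0216). Srsf5 lies at chromosome 12, 80945495 to 80950507, and was read by 1 probe set only.

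Srsf6, an SR protein of the same subgroup, came next among the A-CREB groups. Its signal was 2289.8 and 1854 after saline, 2955 and 2881 after 14 mg/kg and 3107 and 2783 after 18 mg/kg, so that the A-CREB groups did not overlap, while in the wild type it was 2779.9 and 1686 after saline and 2963 and 2372 after kainate, which overlapped. The mean response was 0.39 (SE 0.17, limma, adjusted p = 0.661, and 0.0866 with the block). Srsf4, a larger member of the family, read lower after kainate in the wild type, 1345 and 1037 against 1641 and 1425 after saline, a difference of -0.37 (SE 0.21, limma, adjusted p = 1). In A-CREB mice Srsf4 read 1471 and 1208 after saline and 1299.6 and 1107 after 14 mg/kg, with overlap. Of the 10 SR genes, 8 had a positive mean response, over a range of -0.26 to 0.67 and a median of 0.071.

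Tra2a and Tra2b, SR-like activators that bind GAA-rich exons, had mean responses of 0.10 and 0.18 (limma, adjusted p = 0.995 and 0.884). At 18 mg/kg Tra2a read 1751 and 2649.7 against 1671 and 1607 on the A-CREB saline arrays, and Tra2b read 4303 and 4103 against 3295 and 3677. In both genes the 2 kainate arrays lay above the 2 saline arrays, with differences of 0.39 and 0.27 that did not pass the test (limma, adjusted p = 1 and 1).

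Ptbp1 (chromosome 10, 79854432 to 79864435) was the member with the smallest p in the mean response. Its signal was 1083 and 1011 after saline and 1614 and 1461 after kainate in the wild type. It was 1079 and 961 after saline, 2054 and 1306 after 14 mg/kg and 1207 and 1382 after 18 mg/kg in A-CREB mice. All 6 kainate arrays lay above all 4 saline arrays, which held for 2 of the 45 members (Ptbp1 and Hnrnpc), 4.44% against 1.73% of all genes. The mean response was 0.61 (SE 0.16, 1.53-fold, limma, adjusted p = 0.197), with 0.74 on the arrays numbered 1 and 0.48 on those numbered 2. With the replicate block Ptbp1 rose (SE 0.13, limma, adjusted p = 0.018). The neuronal relative Ptbp2 had a mean response of -0.069 (SE 0.13) and Ptbp3 one of 0.028 (SE 0.12). In A-CREB mice Ptbp2 read 4045 and 4414 after saline and 3982 and 3678 after 14 mg/kg.

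**Figure D2:**
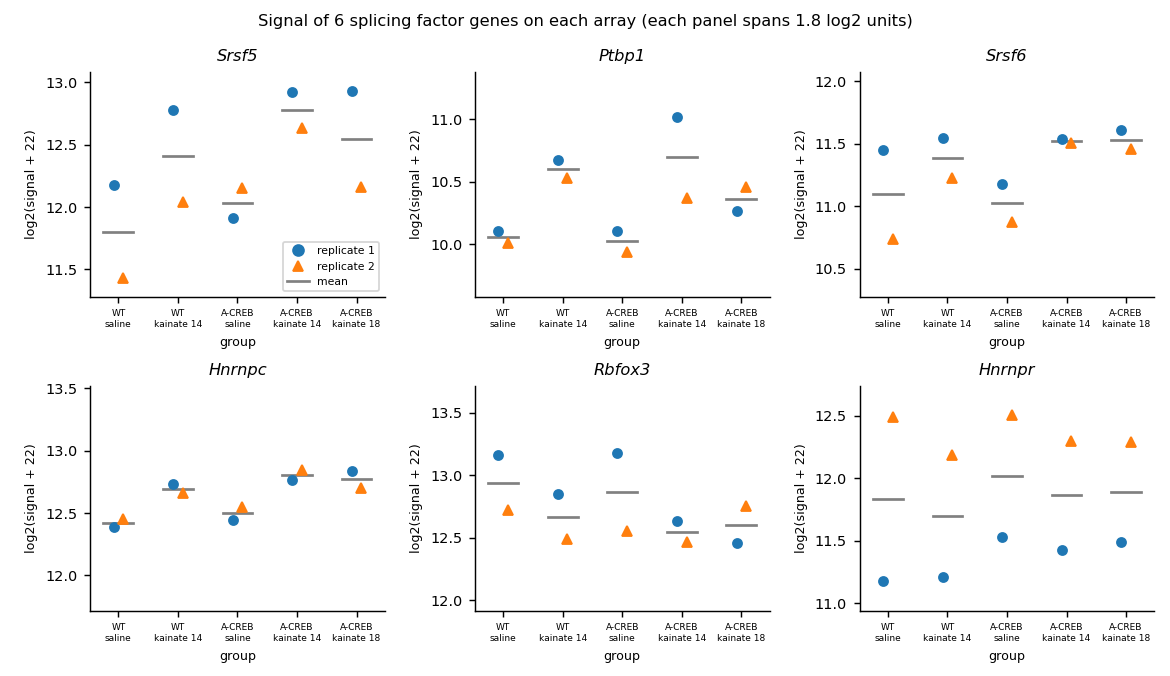
The signal of 6 genes on each array (log2 of signal + 22, vertical axis) by group, with circles for replicate 1, triangles for replicate 2 and a line at the group mean. Ptbp1 and Hnrnpc lie higher on all 6 kainate arrays than on all 4 saline arrays, and Hnrnpr separates by replicate number in every group.

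Among the hnRNP genes, Hnrnpc, which binds uridine tracts in nascent transcripts, was the other member whose kainate arrays all lay above the saline arrays. It read 5348 and 5586 after saline and 6770.5 and 6440.3 after kainate in the wild type. It read 5559.6 and 5974 after saline, 6924 and 7340.3 after 14 mg/kg and 7286 and 6644 after 18 mg/kg in A-CREB mice. The mean response of 0.29 (SE 0.10, limma, adjusted p = 0.479, and 0.0997 with the block) was small beside those of Srsf5 and Ptbp1 but regular over the arrays. Hnrnph3, a G-run binder of the hnRNP H group, read 739 and 604 in A-CREB mice after saline, 832 and 1025 after 14 mg/kg and 962 and 943 after 18 mg/kg, differences of 0.45 and 0.50 (limma, adjusted p = 1 and 1). Neither kainate group overlapped with saline, and neither difference passed. Its relative Hnrnpf read 2582 and 3164 in the wild type after saline and 3631 and 3199.9 after kainate, a difference of 0.25 (SE 0.22). Hnrnpd, also known as AUF1, an AU-rich element binder, read 2277 and 2455 after saline and 2109.9 and 1941 after kainate in the wild type, a difference of -0.22 (SE 0.17).

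Hnrnpul1, an hnRNP U-like protein, was the member that lay lower on all 6 kainate arrays than on all 4 saline arrays, 2.22% of members against 1.79% of all genes. It read 2481 and 2378 after saline and 2261 and 2313 after kainate in the wild type. It read 2564 and 2617 after saline, 2345 and 1951 after 14 mg/kg and 1650.2 and 2143 after 18 mg/kg in A-CREB mice. The difference was -0.18 in the mean response (SE 0.13, limma, adjusted p = 0.901) and -0.46 at 18 mg/kg (SE 0.18, limma, adjusted p = 1). Hnrnpl, which binds CA repeats, read 545 and 606 in A-CREB mice after saline and 470.5 and 446 after 18 mg/kg, a difference of -0.31 (limma, adjusted p = 1). On the wild-type kainate array numbered 2, where the striatal markers were high, Hnrnpl read 740.0, on the array numbered 1 of that group 431, and 443 to 606 on the other 8 arrays, and the part of striatal RNA in this value was not tested.

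The neuronal regulators had mean responses close to or below zero. Rbfox3, the NeuN antigen of neurons, read 9162 and 6726 after saline and 7363 and 5729.9 after kainate in the wild type. It read 9242 and 5999 after saline, 6329.8 and 5641 after 14 mg/kg and 5597 and 6894 after 18 mg/kg in A-CREB mice. The lowest saline array lay within the kainate range, and the mean response was -0.29 (SE 0.17, limma, adjusted p = 0.854, and 0.259 with the block). Rbfox1 had a mean response of 0.02 and Rbfox2 one of -0.14, with SEs of 0.12 and 0.25. The summed signal of 5 pyramidal neuron markers was 19880.4 to 29598 on the saline arrays and 17709 to 22082 on the kainate arrays, and that of 4 dentate granule cell markers was 1916 to 2913 and 1292 to 2595, with median mean responses of -0.21 and -0.38. Their part in the Rbfox, Nova and Celf values was not tested.

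Nova1 and Nova2 bind YCAY clusters in neuronal pre-mRNA. In A-CREB mice Nova1 read 522 and 722 after saline and 461 and 479 after 14 mg/kg, a difference of -0.37 (SE 0.23, limma, adjusted p = 1) without overlap, but 632 and 561 after 18 mg/kg, which lay above both arrays of the lower dose. Nova2 had a mean response of -0.12 (SE 0.17). Celf3, a neuronal CUG-binding factor, read 480.2 and 615 after saline and 255 and 452 after 14 mg/kg in A-CREB mice, a difference of -0.64 (SE 0.40, limma, adjusted p = 1). It read 387 and 472 after saline and 334 and 712 after kainate in the wild type. The highest Celf3 value, on the wild-type kainate array numbered 2, stands on the array with the striatal signal, whose part in it was not tested. Celf2 read 5142 and 5139 after saline and 4485 and 4393 after 18 mg/kg in A-CREB mice, a difference of -0.21 (SE 0.15). Celf5 read 6311 and 5884 after saline and 5344 and 5635 after kainate in the wild type, a difference of -0.15 (SE 0.18).

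The arrays of 2 groups can lie apart without passing the test. In the wild type 3 members lay higher and 5 lower (6.67% and 11.1%, against 10.2% and 16.6% of all genes), in A-CREB mice at 14 mg/kg 12 and 7 (26.7% and 15.6%, against 13% and 16%), and at 18 mg/kg 10 and 7 (22.2% and 15.6%, against 12.4% and 12.2%). In the mean of both genotypes at 14 mg/kg it was 2 and 1 (4.44% and 2.22%, against 2.66% and 3.49%). The comparisons at the 2 doses share the A-CREB saline arrays. The share of members that lay higher was below that of all genes in the wild type and above it in A-CREB mice at both doses, and this difference was not tested.

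**Figure D3:**
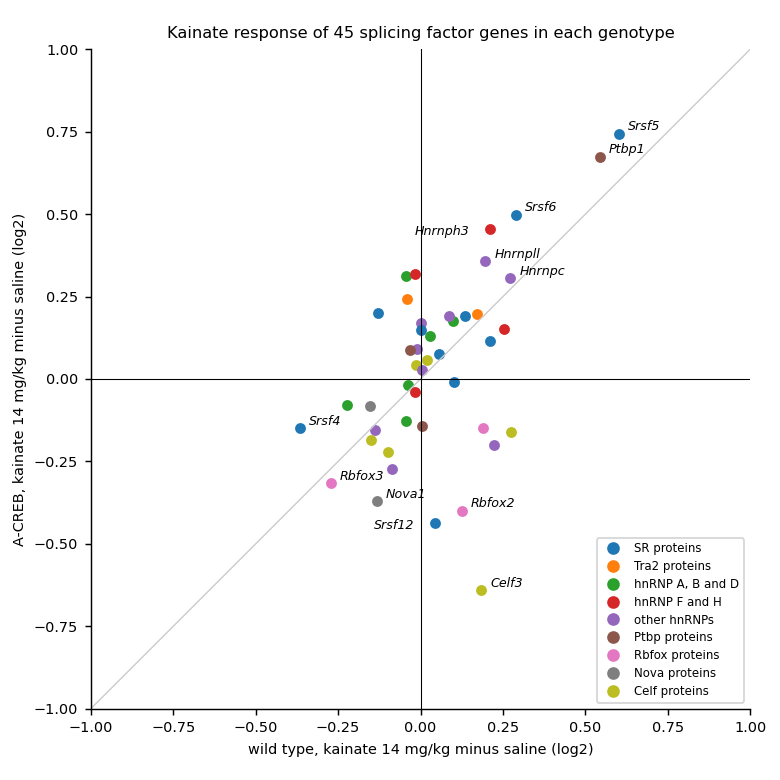
The kainate response at 14 mg/kg of each of the 45 genes in the wild type (horizontal axis) and in A-CREB mice (vertical axis), both as log2 changes of signal + 22. Srsf5 and Ptbp1 lie high in both, and Celf3 lies far below the diagonal.

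Whether A-CREB changed the response was tested directly as the difference between the responses at 14 mg/kg, and no member passed (limma, lowest adjusted p = 1, none of all genes, 0% with or without the block; 0 members at an unadjusted p of 0.05 against 0.726% of all genes). Srsf5 and Ptbp1 differed by 0.14 (interval -0.92 to 1.20) and 0.13 (interval -0.57 to 0.82). The difference of Celf3 was -0.83 (interval -2.09 to 0.44). The intervals lay within 1 log2 unit of zero for 33 of the 45 members, so for the others a difference of that size was not excluded by the spread, and for none do they show that the genotypes respond alike. Intervals here and below are of the fit without the replicate block. For this difference the members had a median SE of 0.30 without the block and 0.22 with it.

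Between the genotypes no member passed after saline, after kainate or in the mean of both (limma, 0%, 0% and 0% of all genes; with the block 0%, 0.0378% and 0.0303%), and 0 members had an unadjusted p under 0.05, against 1.48%, 1.27% and 2.03% of all genes. Srsf12, an SR protein that can oppose other SR proteins, read 499 and 703 in wild-type and 719 and 1007 in A-CREB mice after saline, a difference of 0.51 (interval -0.19 to 1.20). Rbfox2 read 1321 and 1101 in wild-type and 1389.8 and 2045 in A-CREB mice, a difference of 0.48 (interval -0.32 to 1.27). Celf6 read 272 and 427 in wild-type and 480.2 and 436 in A-CREB mice, a difference of 0.40 (interval -0.24 to 1.04). In all 3 genes the A-CREB arrays lay above the wild-type arrays while the interval took in zero. After saline 9 members lay higher and 3 lower in A-CREB mice without overlap (20% and 6.67%, against 8.76% and 13.1% of all genes), the lower ones being Celf5, Ptbp3 and Celf1. Celf5 read 6311 and 5884 in wild-type and 5666 and 4742 in A-CREB mice, Ptbp3 read 651 and 616 against 588 and 577, and Celf1 read 7803 and 8275 against 7724 and 7506. Over saline and kainate together no member lay apart in either direction, against 0.605% and 0.915% of all genes.

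After kainate at 14 mg/kg Hnrnpc and Hnrnpa1 lay higher and Rbfox1 and Celf5 lower in A-CREB mice without overlap, 4.44% each way against 9.99% and 11.8% of all genes. Hnrnpa1, which binds UAGG motifs, read 1470.0 and 1526 in wild-type and 1531 and 1550.4 in A-CREB mice, a difference of 0.04 (SE 0.18). Rbfox1 read 8497 and 7034 in wild-type and 6500.4 and 6162 in A-CREB mice, a difference of -0.29 (interval -0.66 to 0.084). Celf5 read 5344 and 5635 in wild-type and 5092 and 4081 in A-CREB mice, a difference of -0.27. In the mean of saline and kainate Celf5 was lowest, at -0.25 (interval -0.54 to 0.041), and Srsf5 highest, at 0.30 (interval -0.23 to 0.83), the latter resting on the arrays numbered 2 (-0.059 on the arrays numbered 1 and 0.66 on those numbered 2). The 3 members with a full CRE in a promoter, Tra2a, Celf3 and Celf6, differed by 0.19, -0.081 and 0.18, with intervals of -0.20 to 0.58, -0.72 to 0.55 and -0.27 to 0.64. The 5 microglia markers had a median difference between the genotypes of 0.45, with summed signals of 7884 to 9791 on the wild-type and 9348 to 13408 on the A-CREB arrays. The median difference was -0.62 for 5 striatal, -0.32 for 6 choroid plexus, 0.25 for 4 immature neuron and 0.18 for 5 astrocyte markers. C1ql2, a dentate granule cell marker, differed by -0.91 (SE 0.15, limma, adjusted p = 0.717, and 0.0348 with the block), a call lost when wild-type saline replicate 2, A-CREB saline replicate 2 or any 1 of the 14 mg/kg arrays was left out (0.065 to 0.284). Of the other dentate markers Dsp also read lower, at -0.43, while Tdo2 and Prox1 read higher, at 0.47 and 0.31. The median difference of the 4 dentate granule cell markers was -0.060. The part of these cell types in the members' values was not tested.

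**Figure D4:**
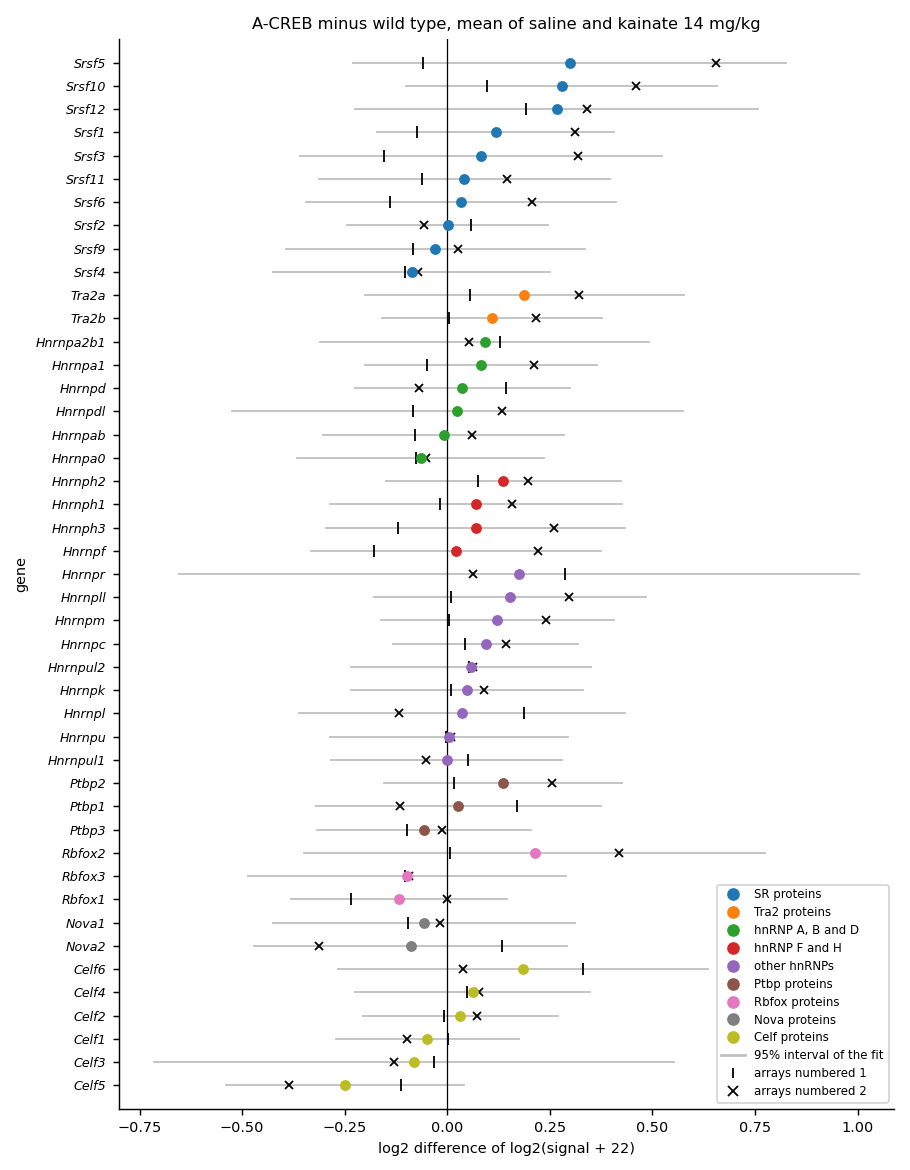
The difference between A-CREB and wild-type mice (log2 of signal + 22, horizontal axis), as the mean of saline and kainate at 14 mg/kg, for the 45 genes. Lines show the 95% interval of the fit without the replicate block, and ticks and crosses show the value within each replicate number. Every interval takes in zero, and 32 of the 45 differences are positive, 71.1% against 44.1% of all genes, which was not tested. The direction held within both replicate numbers for only a part of the 45 genes and changed between the numbers for the others.

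From 14 to 18 mg/kg in A-CREB mice no member passed (limma, 0% of all genes with or without the block; unadjusted p under 0.05 in 0 members and 0.567% of all genes). Without overlap Nova1, Hnrnpa1 and Tra2b lay higher and Hnrnpk lower at the higher dose, 6.67% and 2.22% against 11.3% and 7.24%. Nova1 differed by 0.33 (interval -0.19 to 0.85), and Ptbp1 differed by -0.34 (interval -0.83 to 0.15). Hnrnpk, a poly-C binder, read 11232 and 12301 at 14 mg/kg and 11129.5 and 10538 at 18 mg/kg, a difference of -0.12.

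More genes differed between the replicate numbers than between treatments, among the members and among all genes alike. The contrast of the numbers takes in all 10 arrays, more than any treatment contrast above. Between the arrays numbered 2 and 1, with the group held fixed, 17 of 45 members differed (limma with the block, 37.8% against 34.9% of all genes), 8 higher and 9 lower on the arrays numbered 2 (17.8% and 20% against 20.6% and 14.3%). Hnrnpr read 2295 and 5738 on the wild-type saline arrays and 2935 and 5788 on the A-CREB saline arrays, and its arrays numbered 2 lay above those numbered 1 in 5 of 5 groups, by 0.99 (SE 0.09, adjusted p = 1.6e-05). Of the 10 SR genes, 6 were lower and 2 higher on the arrays numbered 2, among them Srsf5 at -0.46 (SE 0.13, limma, adjusted p = 0.0141) and Srsf6 at -0.31 (SE 0.10, limma, adjusted p = 0.0307). These values are those of the brightest set of each gene. The 5 tested sets of Hnrnpr ran from -0.34 to 0.99 between the numbers, and those of Srsf6 from -0.51 to 0.48. The sets of Srsf3, which was also lower by its brightest set, ran from -0.41 to 0.51. In each of these genes, sets were called in opposite directions. The labels do not say what the number marks.

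**Figure D5:**
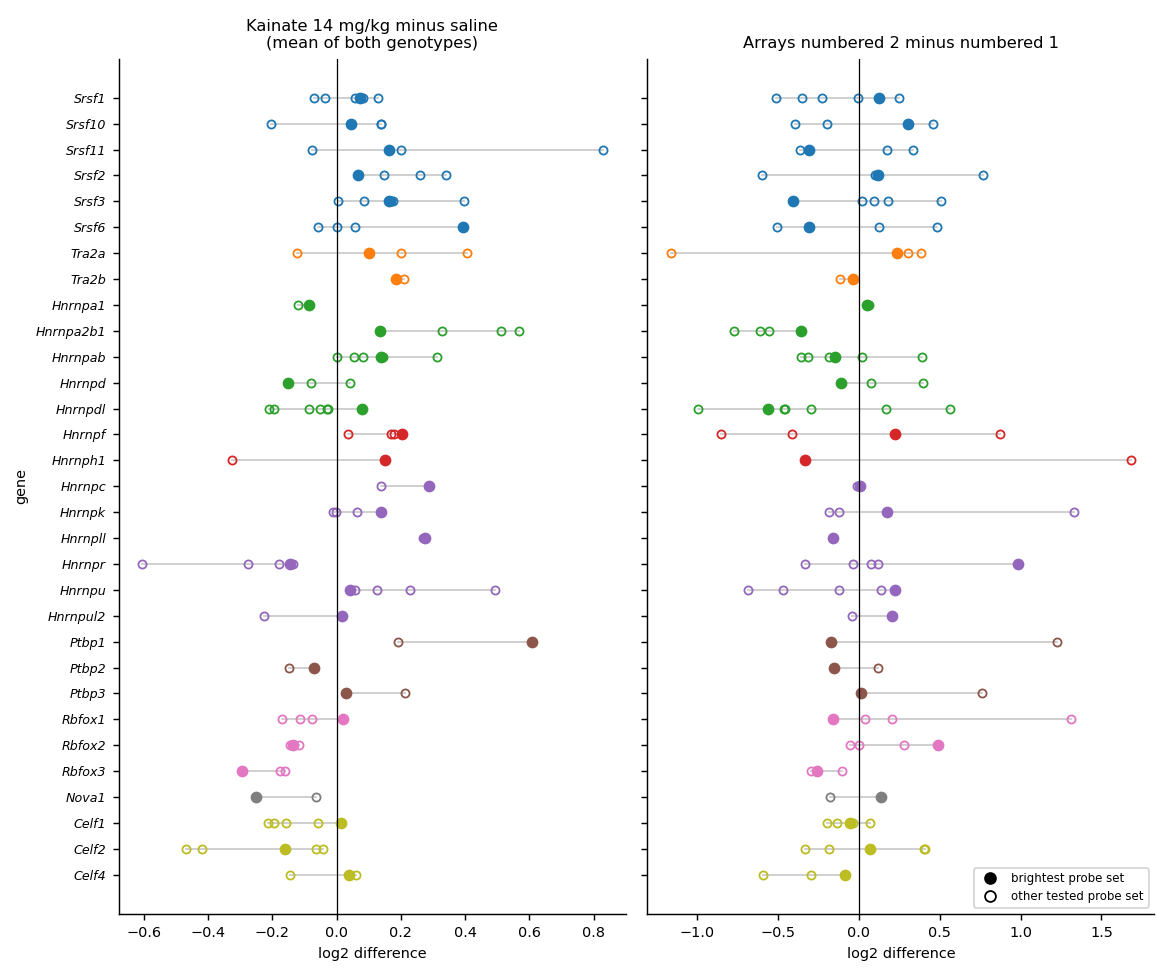
Each tested probe set of the 31 members with several, as log2 differences of signal + 22, for the mean kainate response at 14 mg/kg (left) and for arrays numbered 2 minus numbered 1 (right), with the brightest set of each gene filled and the others open. On the left the sets of Srsf11, Srsf6 and Ptbp1 spread widely, and those of Hnrnpc, Rbfox3 and Hnrnpll stay close together.

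Other probe sets of the same genes often read differently. Of the 31 members with several tested probe sets, 18 had all of them on the same side of zero in the mean response, 58.1% against 57.5% of the 6173 genes with several. The second Ptbp1 set read 0.19 (SE 0.47) against 0.61, and its level differed between the replicate numbers by 1.23. The other 3 Srsf6 sets lay between -0.06 and 0.06 beside 0.39 in the brightest. In contrast the 2 Hnrnpc sets read 0.29 and 0.14, the 2 Tra2b sets 0.18 and 0.21, the 2 Hnrnpll sets 0.28 and 0.27, and the 3 Rbfox3 sets -0.29, -0.16 and -0.17. Among Srsf11, Tra2a, Hnrnph1 and Hnrnpr the range over sets was 0.91, 0.53, 0.48 and 0.47. Among Hnrnpu, Hnrnpa2b1 and Celf2 it was 0.45, 0.43 and 0.43. The highest set was 0.83 for Srsf11 and 0.57 for Hnrnpa2b1. The 4 Tra2a sets ran from -0.12 to 0.40, and from -1.16 to 0.38 between the replicate numbers. In 9 of the 31, sets of 1 gene were called in opposite directions between the replicate numbers, 29% against 8.39% of all genes with several sets, where the members had a mean of 3.68 sets and all such genes 2.7. When every probe set was tested by itself with the block, 1 of the 128 member sets rose, 0.781% against 1.19% of all 27023 sets, that of Ptbp1 (limma, adjusted p = 0.0423), while that of Srsf5 had an adjusted p of 0.0539.

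Of the lists around these genes, 52 of 57 core spliceosome genes, 10 of 10 SR protein kinases and 56 of 64 other splicing regulators were measured. Without the block only Ddx5 among them passed, in the mean response, where 0.696% of all genes did. With the block Ddx5 and Snrnp40 passed there (2.87% of all genes). Ddx5 also passed in the wild type (0.711%) and Rbmx in A-CREB mice at 14 mg/kg (1.26%). Ddx5, an RNA helicase that helps splicing factors reach their sites, rose in the mean response by 0.65 (SE 0.12, limma, adjusted p = 0.0396, and 0.0016 with the block). It read 6909 and 5667 in the wild type after saline and 10668 and 9722 after kainate, and 6525 and 7764 in A-CREB mice after saline and 10772 and 10914 after 14 mg/kg, so that the kainate arrays lay above the saline arrays in both genotypes. Without the block this call was lost whichever array was left out (adjusted p from 0.0517 to 0.199), and with the block it held in all 10 such fits (adjusted p from 0.00095 to 0.0209). Snrnp40, a U5 particle protein, had a mean response of -0.56 (SE 0.23, limma, adjusted p = 0.607) and fell only with the block (adjusted p = 0.0145), a call lost when wild-type kainate replicate 2, wild-type saline replicate 1 or A-CREB kainate 14 replicate 1 was left out (0.06 to 0.11). Rbmx, a nuclear RNA-binding protein, differed between A-CREB kainate 14 and saline arrays by 0.83 (SE 0.26, limma, adjusted p = 0.634) and rose with the block (adjusted p = 0.0485), a call lost without A-CREB saline replicate 1 or either array of the wild-type saline, A-CREB kainate 14 or A-CREB kainate 18 group (0.0657 to 0.394). No SR protein kinase passed in the fit without or with the block. The lists had median mean responses of -0.014, -0.095 and -0.017, against 0.039 for the 45 members, a value that ran from -0.0025 to 0.070 when single arrays were left out.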

How the data were processed

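Each array held hippocampal RNA of 1 pool. The deposited values are intensity on a linear scale, with 1 MAS5 signal for a probe set on each array, made with MAS5 and GCOS per the submitters' processing notes, with versions and background settings not given in the sources used here. The 2% trimmed mean of every array was 500.002 to 500.003, so the arrays had been scaled to a common mean. Of 45101 probe sets, 64 controls were left out. Signals were taken as log2(signal + 22), 22 being the 20th percentile of all signals, which lowers the fold of dim genes, and the upper 60% by mean (27023 probe sets) were tested. Each gene was read by its brightest tested probe set that names 1 gene. Gene names came from the platform annotation. Hnrnpa3, whose probe sets name several genes, and Srsf7 were not analysed here.

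All 10 arrays were fitted in 1 model with limma 3.58.1 (R 4.3.3; lmFit, contrasts.fit, eBayes with an intensity trend, 5 residual degrees of freedom), with 9 contrasts, two-sided p-values, Benjamini-Hochberg adjustment over the 13219 genes within each contrast and a threshold of 0.05. The pipeline was tested on simulated data. The replicate number was a block in an alternative fit (4 residual degrees of freedom). Arrays of the same number deviated together: the correlation of their differences between groups was 0.52 to 0.64 over 10 pairs of groups, and all 10 arrays correlated best with one of the same number. The members and lists were chosen with earlier results of these data known. Members named array by array were those past the threshold in either fit, the 3 largest rises and 3 largest falls without overlap in each contrast, and the Rbfox, Nova, Ptbp1 and Ptbp2 genes. Tra2a and Hnrnpr fall outside this rule and were added after their values were seen. The number of arrays limits the precision.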

Additional observations from a re-analysis of the deposited data

How the results depend on the processing

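Without the replicate block, no member passed the threshold in any of the 9 comparisons under any of the 20 alternatives that changed the pseudocount, filter, normalization, probe sets, trend or arrays. With the block alone 2 members passed in the mean kainate response, against 0 without it. Of the 13219 genes, 380 passed there with the block and 92 without it. The block together with another alternative, chosen after seeing the data, gave 2 there with a pseudocount of 5.5 or 88, the upper 40%, quantile or cyclic loess normalization or only the arrays of the comparison, and 1 with no filter or the mean of the probe sets. It gave 0 with no intensity trend (Ptbp1 adjusted p = 0.0895, Srsf5 0.132) and without the sets whose names end in _s_at, _x_at or _a_at, where Ptbp1 was 0.19 and Srsf5 had no set left. Of all genes, 304 to 411 passed in the settings that gave 2 members. With no filter 245 did, and with the mean of the probe sets 298. With only the arrays of the comparison, 2 per group, the block gave 1 in the wild type and 2 in A-CREB mice at 14 mg/kg. In these fits 207 and 344 of the 13219 genes passed. Leaving out each array with the block gave 0 to 2 members in the mean response and 0 to 1 in A-CREB mice at either dose. Some small differences turned sign. With the mean of the probe sets, with or without the block, Ptbp3 and Celf1 after saline read 0.26 and 0.18 and Hnrnpa1 after kainate -0.0091. Without the _s_at, _x_at and _a_at sets, Hnrnpd in the wild type read 0.047, with or without the block. With the block, Celf1 after saline read 0.011 without wild-type saline replicate 2, Celf5 in the wild type 0.015 without wild-type kainate replicate 1, and Hnrnpk between doses 0.040 without A-CREB kainate 18 replicate 2. The cause was not tested in any of these. The block changed no other call of a member.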
